A study of Mus musculus with 6 samples.

Results

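Red cell genes of an early and a late stage were followed in RNA from splenic CD3+ T cell isolates of transplanted mice. They are Klf1, an early regulator of the lineage, and 3 genes of late precursors, Alas2, Slc4a1 and Hbb-bs. The genes were taken by name, 4 of 8468 genes in the deposited table, and all 4 were in it. The allo-HSCT group, with 3 libraries, comes from Balb/c hosts that received haematopoietic stem cell transplants of C57BL/6 donors, the setting of acute graft-versus-host disease. The syn-HSCT group, also with 3 libraries, comes from Balb/c hosts with Balb/c donors. In both groups a kit was used to isolate the T cells from spleen. The labels give no age, sex, conditioning, time after transplantation or pooling of animals. Nothing in them ties a library to its own mouse, so the tests reflect the scatter of these 3 libraries per group, which may be technical. Transplant type and donor strain cannot be told apart, nor can donor and host cells.

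Red cells arise from progenitors that switch on a set of transcription factors, above all GATA1 and its partners TAL1 and LMO2, together with KLF1. KLF1 binds CACCC motifs and activates globin genes and many genes of haem synthesis and of the red cell membrane. Erythropoietin, acting through its receptor, keeps the precursors alive. As precursors mature, haem is made from a first step catalysed by ALAS2, the anion exchanger SLC4A1 (band 3) is built into the membrane, globin chains accumulate and the nucleus is lost. In mice the spleen takes part in red cell production, most of all when demand is high. Hbb-bs encodes an adult beta globin of the haplotype s carried by C57BL/6, while Balb/c mice carry the haplotype d with other adult beta globin genes, Hbb-b1 and Hbb-b2, which are not analysed here. In syn-HSCT donor and host are both Balb/c, so the values named Hbb-bs there come from mice of the haplotype d. In allo-HSCT donor and host differ in haplotype. The Hbb-bs values of the groups thus do not come from the same haplotypes. The part of the haplotype in the Hbb-bs values was not tested.

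The DNA before 3 of the 4 genes is shown because KLF1 and GATA1 act through DNA motifs. Whether the motifs bear on the changes of these genes was not tested. RefSeq promoter sequences (GRCm38.p6) matched Klf1, Alas2 and Hbb-bs, and Slc4a1 is named only. Each run holds the 250 bases before the annotated start, 5′ to 3′ on the gene's strand. Capitals mark a GATA motif (AGATAA or TGATAA) or a CACCC motif (CCNCNCCC), searched on both strands, so a match on the opposite strand appears as its reverse complement. Matches were allowed to overlap.
Klf1, chr8:84901732-84901981, plus strand: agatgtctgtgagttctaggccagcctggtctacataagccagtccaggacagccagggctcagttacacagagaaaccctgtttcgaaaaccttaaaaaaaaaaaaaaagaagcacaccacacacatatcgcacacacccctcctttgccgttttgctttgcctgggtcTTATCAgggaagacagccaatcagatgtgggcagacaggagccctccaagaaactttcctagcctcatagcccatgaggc
Alas2, chrX:150547167-150547416, plus strand: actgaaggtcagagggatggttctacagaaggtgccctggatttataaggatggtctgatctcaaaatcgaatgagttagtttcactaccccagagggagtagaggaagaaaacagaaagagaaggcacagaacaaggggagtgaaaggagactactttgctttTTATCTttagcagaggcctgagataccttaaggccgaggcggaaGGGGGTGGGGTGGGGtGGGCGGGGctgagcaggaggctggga
Hbb-bs, chr7:103827929-103828178, minus strand: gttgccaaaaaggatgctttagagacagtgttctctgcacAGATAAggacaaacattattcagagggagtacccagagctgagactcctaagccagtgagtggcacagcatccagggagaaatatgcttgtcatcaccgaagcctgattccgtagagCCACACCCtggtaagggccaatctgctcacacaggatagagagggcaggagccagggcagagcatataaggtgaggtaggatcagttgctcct

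The Hbb-bs run held 1 CACCC match, 93 to 86 bases before the start, and 1 GATA match, 210 to 205 bases before it. That run is of the haplotype s and does not show the beta globin promoters of Balb/c mice, which carry the haplotype d. The Alas2 run held 1 GATA match, 86 to 81 bases before the start, and 4 CACCC matches between 42 and 19 bases before it, of which the first 3 overlap their neighbours. The Klf1 run held 1 GATA match, 80 to 75 bases before the start, and no CACCC match of these letters. Among 32536 promoter runs of the same length, 16.5% held a GATA match, 46.2% a CACCC match and 4.55% both, so the CACCC letters alone are common.

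The deposited values are FPKM, read counts divided by gene length and by library size, which allow levels to be compared between genes. The libraries held 15642385 to 17524496 reads, as recovered from the values. Each gene's own read number could be recovered too, and is given as the depth behind its values. The table seems to hold only differing genes: among 4825 genes averaging over 100 reads, none had a log2 ratio of group means between -0.37 and 0.21. All 13 measured T cell markers were higher in allo-HSCT, beside 47.9% of all genes tested. No T cell marker was at 0 in any library. Cd3e stood at 158 to 194 FPKM in allo-HSCT and 97.5 to 98.97 FPKM in syn-HSCT. Allo-HSCT replicate 1 stood apart, with the largest root mean square distance from its group mean (0.159 on the log2 scale, against 0.0778 to 0.111 in the other 5 libraries). Its deviation from the group mean fell with gene length (Spearman rho -0.33 over 5460 genes of the same libraries), so that short genes tended to lie above the mean and long genes below. The fold change between the groups also followed length (rho 0.24 over the same genes): its median log2 value was -0.45 among the 1366 shortest genes (up to 1957 bases), which include Klf1 and Hbb-bs, and 0.28 among the 1364 longest (over 5482 bases).

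Klf1, which encodes the transcription factor KLF1, was lower in allo-HSCT. It stood at 1.48, 1.86 and 2.07 FPKM in allo-HSCT replicates 1 to 3, against 5.51, 4.21 and 4.89 FPKM in syn-HSCT replicates 1 to 3. The groups did not overlap, and the highest allo-HSCT library was below the lowest syn-HSCT library. The means were 1.80 ± 0.299 FPKM in allo-HSCT and 4.87 ± 0.651 FPKM in syn-HSCT (SD, n = 3 each), so the level was 2.70-fold lower in allo-HSCT. limma on log2(FPKM + 1) gave a log2 fold change of -1.07 (SE 0.109, adjusted p = 1.71e-05). The values rest on 37 to 50 reads per allo-HSCT library and 109 to 134 per syn-HSCT library. The exact 95% Poisson interval for the highest allo-HSCT library was 1.54 to 2.73 FPKM and for the lowest syn-HSCT library 3.46 to 5.08 FPKM. Such intervals cover counting error only, since reads without molecular identifiers are not independent molecules. The SD of the allo-HSCT libraries was 16.6% of their mean, and the counting error of a single library averaged 15.1%.

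Alas2, the erythroid form of the enzyme that starts haem synthesis, was higher in allo-HSCT. It stood at 5.27, 5.64 and 5.64 FPKM in allo-HSCT replicates 1 to 3, against 2.14, 2.66 and 2.41 FPKM in syn-HSCT replicates 1 to 3. The 3 allo-HSCT libraries were nearly equal and all lay well above the syn-HSCT libraries. The means were 5.52 ± 0.211 FPKM in allo-HSCT and 2.40 ± 0.261 FPKM in syn-HSCT (SD, n = 3 each), a 2.30-fold higher level (limma log2 fold change 0.94, SE 0.0836, adjusted p = 6.34e-06). The gene had 561 reads over the allo-HSCT libraries and 241 over the syn-HSCT libraries. In GENCODE M21 Alas2 overlaps Apex2 and a microRNA gene on the other strand, and the sources used here do not say whether reads were counted by strand.

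Slc4a1, the chloride and bicarbonate exchanger that also anchors the membrane to its skeleton, had the largest rise of the 4 genes. It stood at 2.64, 4.12 and 3.51 FPKM in allo-HSCT replicates 1 to 3, against 0.761, 1.07 and 0.759 FPKM in syn-HSCT replicates 1 to 3. Every allo-HSCT library was above every syn-HSCT library, with replicate 1 the lowest of the allo-HSCT group. The means were 3.42 ± 0.743 FPKM in allo-HSCT and 0.862 ± 0.177 FPKM in syn-HSCT (SD, n = 3 each), 3.97-fold higher (limma log2 fold change 1.24, SE 0.126, adjusted p = 1.62e-05). The fold change on the log2(FPKM + 1) scale understates the ratio of such low values. Slc4a1 passed the filter of 1 FPKM in 3 libraries with all 3 allo-HSCT libraries and 1 syn-HSCT library, so it was tested because of the group in which it is high. The reads were 203 to 321 per allo-HSCT library and 54 to 85 per syn-HSCT library. The SD in allo-HSCT was 21.7% of the mean, above the mean counting error of 6.26%.

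Hbb-bs was by far the most abundant of the 4 and had the smallest change, although with the length trend removed its log2 fold change was 0.97 and that of Klf1, then the smaller in size, was -0.80. It stood at 233, 184 and 184 FPKM in allo-HSCT replicates 1 to 3, against 131, 156 and 126 FPKM in syn-HSCT replicates 1 to 3. The groups did not overlap, but the gap between the lowest allo-HSCT library and the highest syn-HSCT library was smaller than the range within either group. The means were 200.1 ± 28.2 FPKM in allo-HSCT and 138 ± 16.1 FPKM in syn-HSCT (SD, n = 3 each), 1.45-fold higher (limma log2 fold change 0.53, SE 0.117, adjusted p = 0.00191). With 1917 to 2514 reads per allo-HSCT library and 1257 to 1748 per syn-HSCT library, counting error averaged 2.17% in allo-HSCT and 2.63% in syn-HSCT, while the SD was 14.1% of the mean in allo-HSCT and 11.7% in syn-HSCT. Hbb-bs and Hbb-bt are near-identical copies, so reads can be split between them and the value of each is uncertain.

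**Figure D1:**
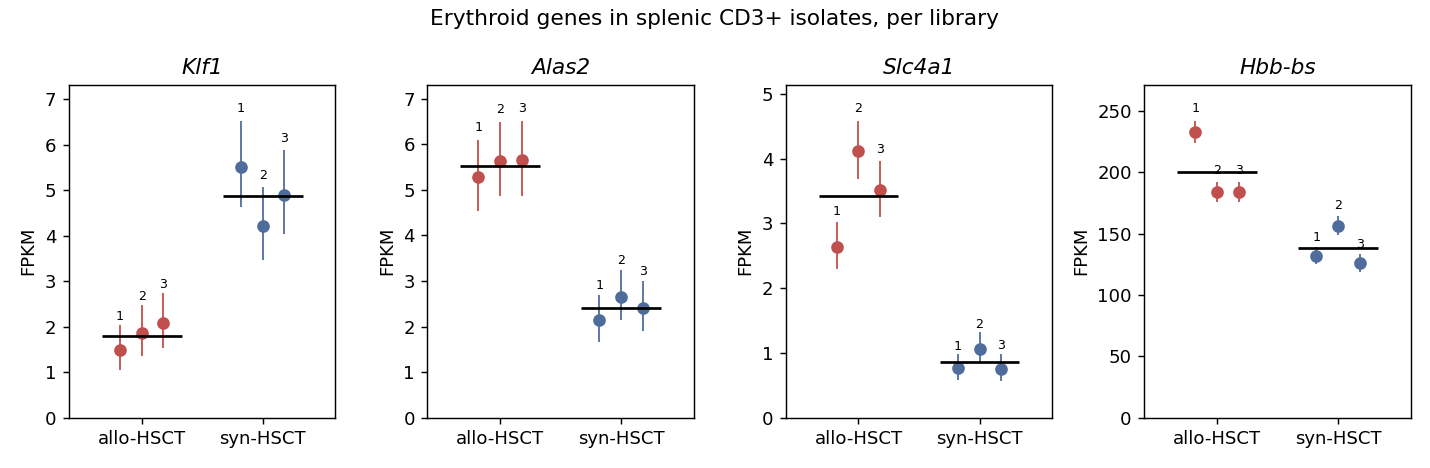
FPKM (y axis, from 0) of Klf1, Alas2, Slc4a1 and Hbb-bs in each library, with allo-HSCT left of syn-HSCT. Points are libraries with their replicate number, thin bars are exact 95% Poisson intervals of the read count, and black lines are group means. Klf1 lies at 1.48 to 2.07 FPKM in allo-HSCT and 4.21 to 5.51 FPKM in syn-HSCT, while the other 3 genes are higher in allo-HSCT.

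All 4 genes passed the threshold, 3 higher and 1 lower in allo-HSCT. Of the 5460 genes tested in this table, 93.7% passed, 47.9% higher and 45.8% lower, and 91.0% had groups that did not overlap, so passing is near the background for a gene of this table. By size, 374 tested genes had a lower log2 fold change than Klf1, 98 had a higher one than Slc4a1, 235 a higher one than Alas2 and 823 a higher one than Hbb-bs. Past the threshold and with a log2 fold change of 1 or more in size, as for Slc4a1 and Klf1, 3.74% of tested genes were higher and 7.91% lower. In these bulk isolates fewer cells of a type and less RNA per cell cannot be told apart.

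Since Klf1 fell and the late genes rose, their ratios were set side by side within each library, where they do not depend on how libraries are scaled. The ratio of Alas2 to Klf1 FPKM was 3.56, 3.03 and 2.72 in allo-HSCT replicates 1 to 3, against 0.388, 0.631 and 0.492 in syn-HSCT replicates 1 to 3. Alas2 was thus above Klf1 in all 3 allo-HSCT libraries and below it in all 3 syn-HSCT libraries. The mean log2 ratio was 1.63 ± 0.195 in allo-HSCT and -1.02 ± 0.351 in syn-HSCT (SD, n = 3 each), a 6.25-fold difference. The ratio of Slc4a1 to Klf1 was 1.78, 2.22 and 1.69 in allo-HSCT, against 0.138, 0.253 and 0.155 in syn-HSCT, a 10.7-fold difference. The ratio of Hbb-bs to Klf1 was 157, 99.1 and 88.6 in allo-HSCT, against 23.8, 37.0 and 25.7 in syn-HSCT, a 3.93-fold difference. These ratios are a description with no test, since separate groups follow from the opposite changes of their genes. With a pseudocount of 1 the log2 difference between the groups was 2.01 for Alas2, 2.30 for Slc4a1 and 1.6 for Hbb-bs, in place of 2.64, 3.42 and 1.97.

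**Figure D2:**
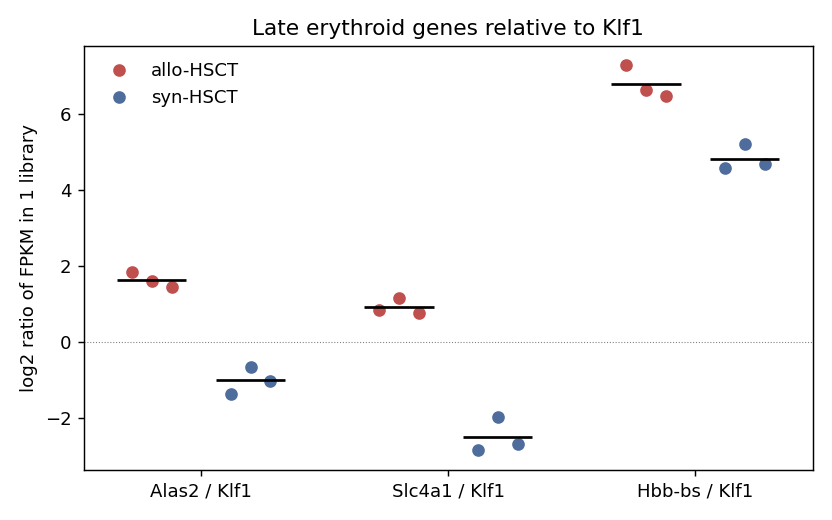
log2 ratio of the FPKM of each late gene to that of Klf1 within a library (y axis), with allo-HSCT left of syn-HSCT for each ratio. Points are libraries and black lines are group means. Mean log2 ratios of Alas2 to Klf1 are 1.63 in allo-HSCT and -1.02 in syn-HSCT, and the groups are separate for all 3 ratios.

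The ratios among the late genes also had groups that did not overlap. The ratio of Slc4a1 to Hbb-bs was 0.0113, 0.0224 and 0.0191 in allo-HSCT, against 0.00579, 0.00683 and 0.00603 in syn-HSCT, 2.73-fold higher in allo-HSCT. The ratio of Alas2 to Hbb-bs was 1.59-fold higher and that of Slc4a1 to Alas2 1.72-fold higher in allo-HSCT (exact two-sided permutation p = 0.1 for each of the 3, the smallest that 3 against 3 libraries allow, and adjusted p = 0.145 over 16 ratios computed). Allo-HSCT replicate 1 entered these ratios from both sides. Relative to the mean log2(FPKM + 1) of the other 2 allo-HSCT libraries it was 0.34 higher for Hbb-bs, a gene with a recovered length of 639 bases, while it differed by -0.40 for Slc4a1 (4550 bases), -0.08 for Alas2 (2018 bases) and -0.26 for Klf1 (1476 bases). Without that library the log2 fold change was 0.42 for Hbb-bs and 1.37 for Slc4a1, both past the threshold (limma adjusted p = 8.13e-04 and 1.66e-06). With the trend of fold change on gene length removed, Hbb-bs had a log2 fold change of 0.97 (limma adjusted p = 5.00e-06) and Slc4a1 one of 1.16, and with sample quality weights Hbb-bs had one of 0.35 (limma adjusted p = 3.90e-04).

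Of the other haemoglobin genes, Hbb-bt and Hba-a1 rose as Hbb-bs did. Hbb-bt, its neighbouring copy, rose 1.54-fold, to 44.7 ± 6.14 FPKM in allo-HSCT, against 29.0 ± 4.41 in syn-HSCT (SD, n = 3 each; limma adjusted p = 0.00129). The limits given for Hbb-bs, of haplotype and of reads split between the copies, hold for Hbb-bt too. Its rise is thus not a separate observation. Hba-a1, an alpha globin from another chromosome, rose 1.49-fold, to 97.1 ± 12.1 FPKM in allo-HSCT, against 64.9 ± 4.21 in syn-HSCT (limma adjusted p = 4.97e-04). Hba-a2, its near-identical copy, averaged 32.5 FPKM in allo-HSCT and 26.2 FPKM in syn-HSCT, with groups that overlapped (limma adjusted p = 0.0672). Ahsp, which encodes the chaperone of free alpha globin, averaged 10.2 FPKM in allo-HSCT and 8.72 FPKM in syn-HSCT (limma adjusted p = 0.054). Within libraries the ratio of Hbb-bt to Hbb-bs was 0.221 to 0.227 in allo-HSCT and 0.194 to 0.224 in syn-HSCT (exact two-sided permutation p = 0.3), and that of Hba-a1 to Hbb-bs was 0.476 to 0.503 in allo-HSCT and 0.408 to 0.554 in syn-HSCT (exact two-sided permutation p = 0.7), with groups that overlapped for both ratios. The 4 haemoglobin genes took 0.021% to 0.0264% of reads in allo-HSCT libraries and 0.0149% to 0.0172% in syn-HSCT libraries. Of the 5 tested genes of the globin list, 3 rose and none fell, beside 47.9% and 45.8% of all genes tested, with a median log2 fold change of 0.53, against 0.20 over all genes tested. Allo-HSCT replicate 1 lay above the other 2 by a median of 0.30 in this list, and without it 4 rose.

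Among erythroid transcription factors and cofactors, 11 of 19 tested genes fell, Klf1 included, and 8 rose. These are 57.9% and 42.1%, beside 45.8% lower and 47.9% higher over all genes tested, and the median log2 fold change was -0.94 beside 0.20 over all genes tested. Those that fell include the partners of KLF1 in early precursors. Gata1, the master regulator of the lineage, stood at 4.82, 6.63 and 5.23 FPKM in allo-HSCT replicates 1 to 3, against 9.06, 8.73 and 9.68 FPKM in syn-HSCT replicates 1 to 3, 1.65-fold lower in allo-HSCT (limma log2 fold change -0.64, adjusted p = 3.75e-04). Tal1, the DNA-binding partner in the GATA1 complex, stood at 1.42, 1.42 and 1.39 FPKM in allo-HSCT, against 4.18, 4.28 and 4.28 FPKM in syn-HSCT, 3.01-fold lower. Neither gene had overlapping groups. The ratio of Klf1 to Gata1 was 0.308, 0.280 and 0.397 in allo-HSCT, against 0.609, 0.483 and 0.505 in syn-HSCT (exact two-sided permutation p = 0.1, the smallest possible).

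The 4 largest changes in that list were all falls. Lyl1, a relative of TAL1 active in stem and progenitor cells, was 5.73-fold lower, at 4.73 FPKM in allo-HSCT and 27.1 FPKM in syn-HSCT. Nfe2, a factor of erythroid and megakaryocytic cells, was 4.58-fold lower in allo-HSCT. Lmo2, the bridging protein of the GATA1 and TAL1 complex, stood at 10.04 FPKM in allo-HSCT and 40.2 FPKM in syn-HSCT, and Bcl11a, the repressor of fetal globin genes, was 6.05-fold lower. These 4 genes had limma adjusted p-values of 3.78e-08 to 2.47e-07. Bcl11a reached 1 FPKM in 1 allo-HSCT and 3 syn-HSCT libraries, so it was tested because of the group in which it is high. Gfi1b, a repressor needed for red cells and platelets, was 2.66-fold lower. The 8 that rose were Ikzf1, Zfpm1, Mllt3, Klf3, Zbtb7a, E2f2, E2f4 and Hemgn, by 1.16-fold to 1.57-fold, and Ikzf1, which encodes Ikaros, is also a lymphocyte gene. E2f2, E2f4 and Hemgn lost the call when single libraries were left out, and E2f4 had groups that overlapped. The 8 were named after their values were seen.

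Epor, the erythropoietin receptor, stood at 2.84, 2.23 and 2.31 FPKM in allo-HSCT replicates 1 to 3, against 5.04, 3.96 and 5.10 FPKM in syn-HSCT replicates 1 to 3. The groups did not overlap and the level was 1.91-fold lower in allo-HSCT (limma log2 fold change -0.72, adjusted p = 1.96e-04). Lyn, a kinase that acts with the receptor and is also a gene of B cells and myeloid cells, was 2.48-fold lower. Stat5b and Socs3, a signal transducer and a feedback inhibitor that T cells share, rose 1.29-fold and 1.37-fold. These were the 4 tested of 12 genes in the erythropoietin list.

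Of 12 tested progenitor genes 9 fell and 2 rose, 75.0% and 16.7% beside 45.8% and 47.9% of all genes tested, and the median log2 fold change was -0.64. Cd34, a surface protein of stem and progenitor cells, was 6.59-fold lower, at 3.54 FPKM in allo-HSCT and 23.3 FPKM in syn-HSCT. Kit, the stem cell factor receptor, was 2.95-fold lower, Mfsd2b, a lipid transporter of red cells and platelets, 4.52-fold lower, and Aqp1, a water channel of red cells, 3.21-fold lower. Car1 and Car2, carbonic anhydrases of the erythroid lineage, were 1.54-fold and 1.61-fold lower. The 2 that rose were Slamf1, also a T cell gene, and Rhag, the ammonium channel of the red cell membrane, at 2.02 FPKM in allo-HSCT and 1.18 FPKM in syn-HSCT. Allo-HSCT replicate 1 lay above the other 2 by a median of 0.21 in this list, and the counts were the same without it.

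Of 17 iron handling genes 6 were tested and all 6 fell, beside 45.8% of all genes tested, with a median log2 fold change of -0.50. The other genes of that list have no values here. As the table seems to hold only differing genes, the 6 do not describe the whole list. Tfr2, the second transferrin receptor, which associates with the erythropoietin receptor, was 4.60-fold lower, at 1.46 ± 0.267 FPKM in allo-HSCT and 6.71 ± 1.04 FPKM in syn-HSCT (SD, n = 3 each). Steap3, the reductase that frees iron in endosomes, was 2.20-fold lower. Tfrc, the main transferrin receptor, was 1.32-fold lower, and the ferritin genes Fth1 and Ftl1, the iron store of many cell types including macrophages, were 1.38-fold and 1.45-fold lower. Fth1 and Ftl1 did not pass with the length trend removed, and Ftl1 did not pass with quantile normalization either.

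Alas2 stood alone in size among haem synthesis genes. Of 7 tested of 19, 2 rose and 4 fell, 28.6% and 57.1% beside 47.9% and 45.8% of all genes tested, with a median log2 fold change of -0.32. Fech, the enzyme of the last step, rose 1.24-fold, to 12.97 FPKM in allo-HSCT, against 10.5 FPKM in syn-HSCT. Uros, an enzyme of an inner step, was 1.33-fold lower, Slc25a39, a mitochondrial carrier, 1.30-fold lower, and Hebp1, a haem-binding protein, and Abcg2, a porphyrin exporter, 1.40-fold and 1.62-fold lower. Hebp1 had groups that overlapped and did not pass with the length trend removed. Most of the pathway is not analysed here, among them Alad and the carrier Slc25a37.

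**Figure D3:**
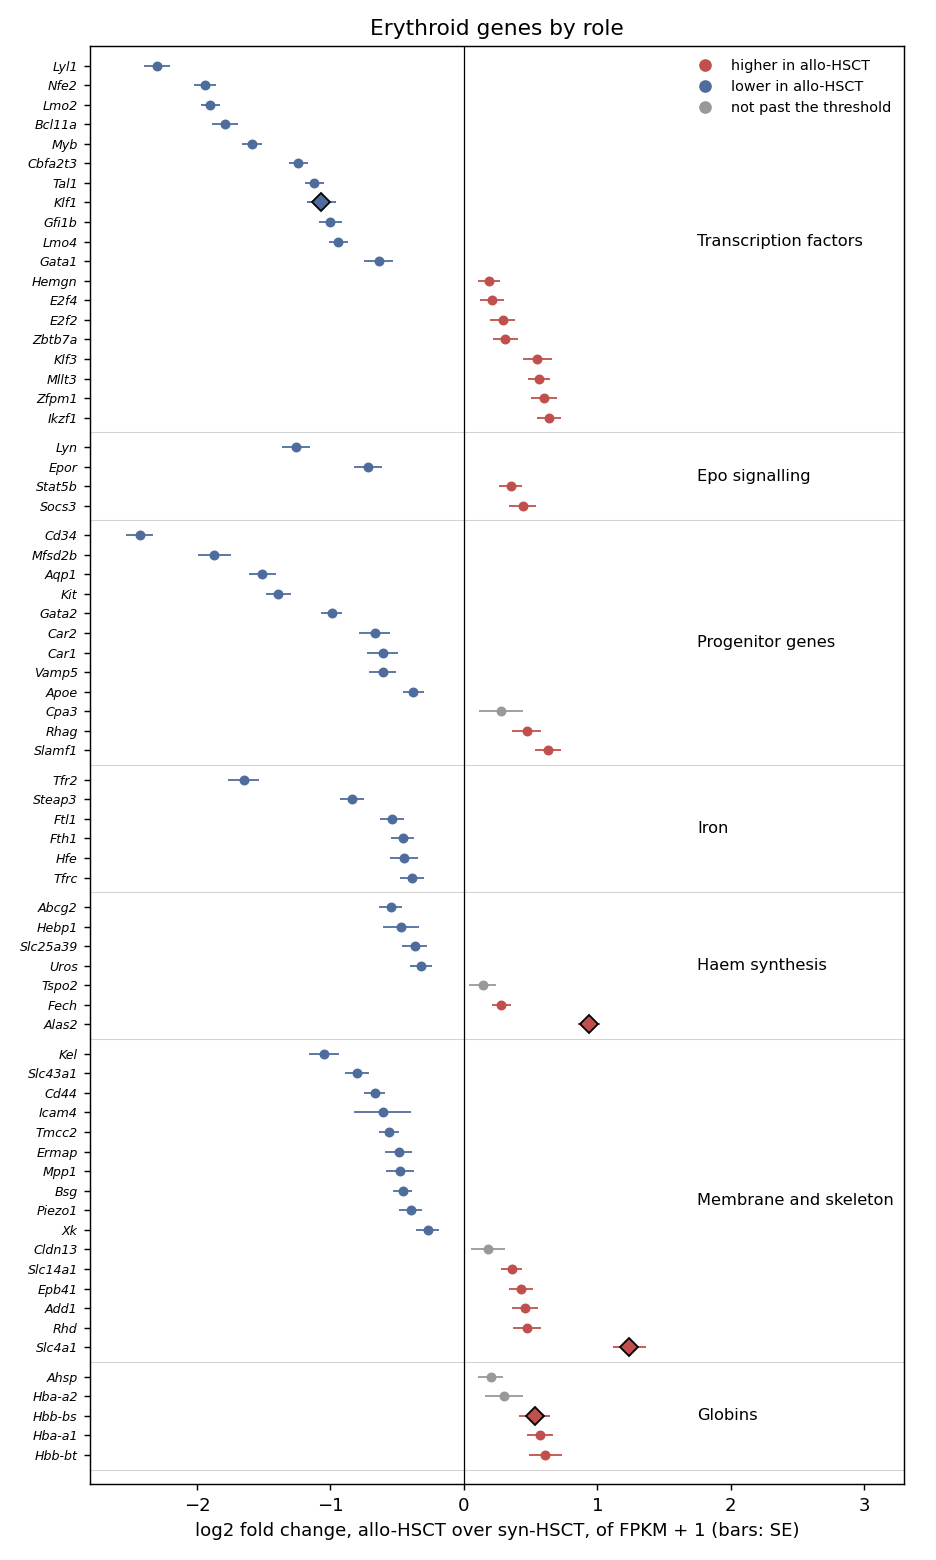
log2 fold change on the log2(FPKM + 1) scale, allo-HSCT over syn-HSCT (x axis), of tested genes of 7 erythroid lists, grouped by role, with each gene shown once and bars for the SE from limma. Diamonds are Klf1, Alas2, Slc4a1 and Hbb-bs. Most transcription factor, progenitor and iron genes lie to the left, globin genes lie to the right, and Alas2 (0.94) and Slc4a1 (1.24) lie farthest right in their groups.

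The membrane list was divided around Slc4a1, with 6 genes higher and 11 lower of 19 tested and a median log2 fold change of -0.40. These are 31.6% and 57.9%, beside 47.9% and 45.8% of all genes tested. Rhd, the mouse Rh blood group protein, rose 1.98-fold, to 1.28 FPKM in allo-HSCT, against 0.645 FPKM in syn-HSCT (limma adjusted p = 0.00208). It reached 1 FPKM in the 3 allo-HSCT libraries only and was tested because of them. Epb41 and Add1, skeleton proteins that other cells also make, rose 1.38-fold and 1.39-fold. Kel, the Kell blood group endopeptidase, was 3.45-fold lower, at 0.781 FPKM in allo-HSCT and 2.69 FPKM in syn-HSCT, and Slc43a1, an amino acid transporter, 2.57-fold lower. Both were tested because of syn-HSCT, where all 3 libraries reached 1 FPKM, against 1 allo-HSCT library for Kel and 0 for Slc43a1.

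Some late red cell genes were too low for the test and are given by their reads, having been named after their values were seen. Sptb, the beta spectrin of the red cell skeleton, had 411 reads over the allo-HSCT libraries and 115 over the syn-HSCT libraries, at means of 0.785 FPKM in allo-HSCT and 0.223 FPKM in syn-HSCT. Epb42, which binds SLC4A1 to the skeleton, had 92 reads in allo-HSCT and 31 in syn-HSCT. Trim10, needed for late red cell maturation, had 105 reads in allo-HSCT and 41 in syn-HSCT. Trim58, a ubiquitin ligase of the last nucleated stages, went the other way, with 54 reads in allo-HSCT and 112 in syn-HSCT. The groups did not overlap for any of these 4 genes, as was so for 91.0% of all genes tested. Of the other untested genes of the membrane, globin and maturation lists, Add2, Dmtn and Slc6a9 were higher in allo-HSCT without overlap. Tmod1 and Hbq1b had groups that overlapped. Of 16 tested genes of terminal maturation, 7 rose and 8 fell, 43.8% and 50.0%, close to the 47.9% and 45.8% of all genes tested, with a median log2 fold change of -0.03. Tent5c, a poly(A) polymerase also active in lymphocytes, rose 1.88-fold and Gpx1, the glutathione peroxidase of red cells and many other cells, was 3.47-fold lower. Atpif1, an inhibitor of the mitochondrial ATP synthase, stood at 34.8 FPKM in allo-HSCT and 69.4 FPKM in syn-HSCT, and Fbxo30 was 2.57-fold lower.

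Genes known as direct KLF1 targets in mice differed little from the table as a whole. Of 15 tested of 26, 7 rose and 6 fell, beside 47.9% and 45.8% of all genes tested, and the median log2 fold change was 0.20, as it was over all genes tested. Slc4a1, Alas2, Hbb-bs, Hbb-bt, Klf3, E2f2 and Rhd were those that rose, and Bcl11a, Aqp1, Kel, Icam4, Ermap and Tfrc were those that fell. Icam4 had groups that overlapped and lost the call without allo-HSCT replicate 1 or syn-HSCT replicate 3. Within the family of Krüppel-like factors, 6 of 9 tested genes fell and 3 rose, 66.7% and 33.3% beside 45.8% and 47.9% of all genes tested. Klf1 was 2.70-fold lower, beside Klf4, a factor of myeloid and epithelial cells (2.13-fold lower), and Klf10, which responds to TGF-beta (2.35-fold lower), while Klf13, a lymphocyte factor, rose 1.52-fold.

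Counted together, the erythroid lists held 160 genes, of which 97 were in the table and 86 passed the filter on low values. In allo-HSCT 29 were higher and 50 lower, 33.7% and 58.1% of those tested, beside 47.9% and 45.8% of all genes tested, and the median log2 fold change was -0.42 beside 0.20. Without allo-HSCT replicate 1, 29 were higher and 48 lower. Many of these genes are also used by other cells, so the counts do not describe red cell precursors alone. Nor do they describe the lists as a whole, since the table seems to hold only differing genes.

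Levels of markers for other cells differed between the groups too. The counts of markers below stand beside 47.9% higher and 45.8% lower in allo-HSCT over all genes tested. The summed level of the 10 markers of haematopoietic progenitors was 24.4 to 26.0 FPKM in allo-HSCT and 89.0 to 92.6 FPKM in syn-HSCT, and all 9 tested were lower, among them Gata2, a stem cell factor, at 7.65 FPKM in allo-HSCT and 16.1 FPKM in syn-HSCT. The 9 measured platelet and megakaryocyte markers summed to 39.1 to 49.1 FPKM in allo-HSCT and 54.9 to 60.4 FPKM in syn-HSCT, with 7 of 8 tested lower; Pf4, a platelet chemokine, was 1.66-fold lower and Itgb3, an integrin, 1.39-fold higher. The 10 measured markers of island and red pulp macrophages, which nurse red cell precursors and clear old red cells, summed to 452 to 566 FPKM in allo-HSCT and 634 to 701 FPKM in syn-HSCT, with 6 lower and 2 higher. Hmox1, which breaks down haem, stood at 247 FPKM in allo-HSCT and 372 FPKM in syn-HSCT, and Csf1r, a growth factor receptor of macrophages, was 1.31-fold lower. Hmox1 had the highest level of these markers, so the macrophage sum depends on it most. The 2 higher were Siglec1 and Axl, with Axl at 44.61 FPKM in allo-HSCT and 33.02 FPKM in syn-HSCT. Mrc1 and Cd5l did not pass the threshold, with groups that overlapped and means that were higher in allo-HSCT. The lower macrophage sum thus does not hold for each of its genes. T cell markers summed to 2021 to 2103 FPKM in allo-HSCT and 1146 to 1213 FPKM in syn-HSCT, with Cd3g 1.58-fold and Lck 1.52-fold higher. Monocyte markers summed to 530 to 761 FPKM in allo-HSCT and 1909 to 2508 FPKM in syn-HSCT, with Lyz2 7.51-fold lower and Ly6c2 1.56-fold higher. Granulocyte markers summed to 858 to 996 FPKM in allo-HSCT and 1659 to 1680 FPKM in syn-HSCT, with 5 of 10 lower and 5 higher. Mpo was 5.82-fold lower and Ngp 1.65-fold higher, so the lower granulocyte sum does not hold for each of its genes. NK cell markers summed to 458 to 553 FPKM in allo-HSCT and 643 to 697 FPKM in syn-HSCT, with Nkg7 1.93-fold higher and Tyrobp 3.44-fold lower. Markers of B and plasma cells summed to 218 to 296 FPKM in allo-HSCT and 154 to 163 FPKM in syn-HSCT, with Jchain 1.56-fold and Mzb1 1.40-fold higher. Mast cell and basophil markers overlapped, at 68.0 to 95.9 FPKM in allo-HSCT and 84.5 to 91.5 FPKM in syn-HSCT, with 1 higher and 4 lower of 6 tested. Hdc was 1.63-fold lower, Cpa3 did not pass the threshold, and Fcer1a and Kit, chosen after their values were seen, were 2.53-fold higher and 2.95-fold lower. No marker in any of the 9 lists was at 0 in any library. The part of these cells in the values of the 4 genes was not tested.

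Set against the T cell gene Cd3e in the same library, Klf1 was 4.98-fold lower in allo-HSCT and Slc4a1 2.15-fold higher, each with groups that did not overlap. Alas2 was 1.25-fold higher relative to Cd3e. Hbb-bs relative to Cd3e was 1.47, 0.950 and 0.949 in allo-HSCT replicates 1 to 3, against 1.35, 1.58 and 1.27 in syn-HSCT replicates 1 to 3, so its groups overlapped on that scale (exact two-sided permutation p = 0.3).

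**Figure D4:**
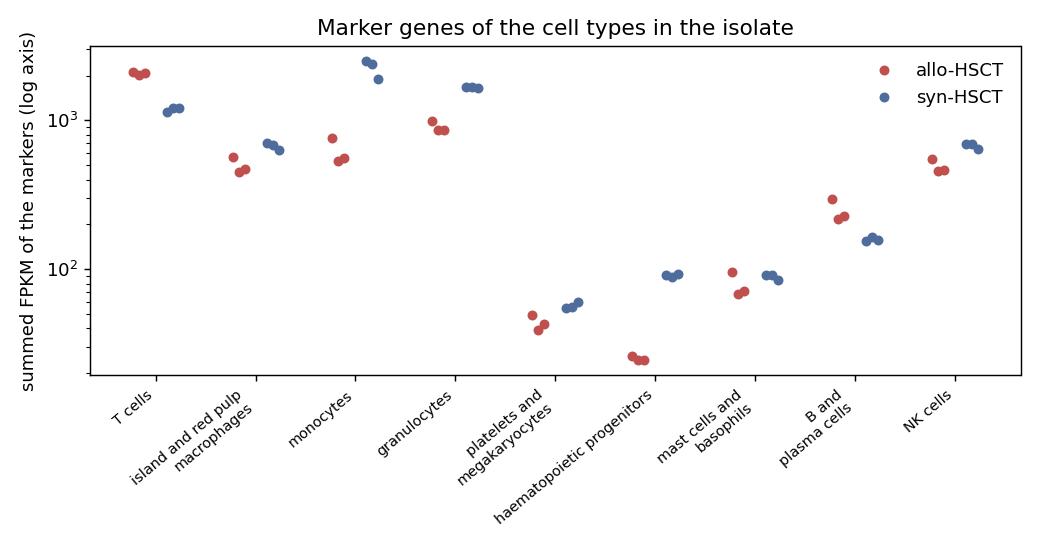
Summed FPKM of the measured markers of 9 cell types (y axis, log scale) in each library, with allo-HSCT left of syn-HSCT; points are libraries. Progenitor markers are at 24.4 to 26.0 FPKM in allo-HSCT and 89.0 to 92.6 FPKM in syn-HSCT, while T cell markers are higher in allo-HSCT.

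The genes with the most similar pattern over the 6 libraries were found by the smallest root mean square difference of centred log2(FPKM + 1) values. Haemoglobin genes and symbols of predicted genes, clones and pseudogenes were left out of this search. The measure depends on the size of the group difference. The genes nearest Alas2 had log2 fold changes of 0.86 to 0.94, beside 0.94 for Alas2. Shared regulation was not tested. For Klf1 these were Mtus1 (0.068), Klf4 (0.0711), Cebpb (0.0731), Cxcl3 (0.0749) and Rln3 (0.0869). For Alas2 they were Itga4 (0.0454), Cd40lg (0.0558), Septin3 (0.0597), Prkca (0.0612) and Rassf6 (0.0628). For Slc4a1 they were Zc3h6 (0.0915), Ubash3a (0.1), Ikzf3 (0.108), Rab11fip4 (0.113) and F2rl1 (0.118), and for Hbb-bs Scg5 (0.0513), Xrcc5 (0.0537), Tubb2b (0.0607), Eea1 (0.0632) and Zdhhc2 (0.0634). Among the 4 genes themselves Alas2 and Slc4a1 were the closest pair (0.195), followed by Alas2 and Hbb-bs (0.256), and Klf1 and Slc4a1 were the farthest apart (1.17), so no member was among the nearest genes of another.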

How the data were processed

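RNA of 6 libraries, 3 per group, was measured. Per the labels' protocols, ribosomal RNA was depleted before library construction. Limma is listed in the submitters' processing notes. Which aligner, counting tool, build and strand setting were used is not stated there. The deposited table gives values that were read as FPKM that the authors computed: with recovered library totals, 100.0% of genes came out as whole reads in all 6 libraries (tolerance 0.0001 reads, gene lengths free). Limma 3.58.1 (R 4.3.3) was fitted to log2(FPKM + 1) of the 5460 genes with at least 1 FPKM in 3 libraries. The fit used a mean-variance trend and Benjamini-Hochberg adjustment at 0.05. It was also run on simulated data in which most genes were unchanged. That setting differs from this table, so the run does not check the adjusted p-values here. Ratios used exact permutation tests (scipy 1.17.1). Promoters came from RefSeq (GRCm38.p6).

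The members and lists were chosen with earlier results of these data known. Named genes were up to 4 per list with the largest change past the threshold, the 2 most abundant of each marker list, and 5 nearest patterns per gene. Other genes named, such as Gata1, Tal1, Gfi1b, Car1 and Fech, were chosen after their values were seen. Some genes of the lists are counted but not reported here by name.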

Additional observations from a re-analysis of the deposited data

How the results depend on the processing

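The direction and the call of the 4 genes were the same under every alternative that gave a value. All alternatives drew on the same 6 libraries and on a table that seems to hold only differing genes. A call in them was thus likely beforehand, and the adjusted p-values do not allow for that choice of genes. Over alternatives other than leaving out a library, the log2 fold change ranged from -1.43 to -0.80 for Klf1, 0.93 to 1.20 for Alas2, 1.16 to 1.97 for Slc4a1 and 0.35 to 0.97 for Hbb-bs. The alternatives were pseudocounts of 0.1 and 0.01, no filter, a mean of at least 5 FPKM, equal sample medians, quantile normalization, no trend, sample quality weights (whose fit stopped before its tolerance) and the replicate block, and, added after seeing the data, removal of the length trend and a shift to the middle of the gap in fold changes. A mean of at least 5 FPKM left no value for Klf1, Alas2 and Slc4a1. Leaving out each library in turn gave -1.15 to -0.98, 0.88 to 0.99, 1.13 to 1.37 and 0.42 to 0.63 for the 4 genes in that order, 4657 to 5190 genes called in the whole table, and 26 to 29 erythroid genes higher and 48 to 50 lower. At a mean of at least 5 FPKM 32 erythroid genes were lower, of 58 tested, because fewer genes were tested. The log2 ratios to Klf1 differed by 2.01 for Alas2, 2.30 for Slc4a1 and 1.6 for Hbb-bs with a pseudocount of 1. The deviations of same-numbered libraries of the 2 groups had r = -0.022, -0.202 and 0.077 over 5460 genes. Pairs with unlike numbers had r from -0.171 to 0.24. Deviations from a mean of 3 libraries are not independent, so these values cannot decide whether same-numbered libraries were paired. With the replicate block 5105 genes were called, 30 erythroid genes were higher and 50 lower, and the log2 fold changes of the 4 genes were as without it. Klf1, with 134 reads over 3 allo-HSCT libraries, is the gene that depth limits most.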
